A study of Mus musculus with 12 samples.

Results

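Trpc6 and 8 other genes of transient receptor potential (TRP) channels (Trpc1, Trpc4, Trpv2, Trpv4, Trpm2, Trpm4, Trpm7 and Pkd2) were followed in the lungs of mice after lipopolysaccharide (LPS) exposure. They were found by gene symbol and are 9 of 55414 genes in the table and 9 of the 27 genes of the mouse TRP superfamily that were looked up. RNA was sequenced from 12 lungs, 6 from IL-10 B-WT and 6 from IL-10 B-KO animals, all taken on day 4 after LPS, a component of the bacterial cell wall, was given into the airways. IL-10 B-KO mice carried a floxed Il10 gene and mb1-Cre, which is driven by Cd79a and cuts in B cells, so that Il10, the gene of the anti-inflammatory cytokine interleukin-10, is deleted in B cells. IL-10 B-WT mice, called controls from here on, were matched for age and sex, and both lines were on the C57BL/6J background. Ages are not given in the sources used here, and lungs without LPS were not analysed here. The 9 genes were selected on differences between these genotypes that were already known from the same libraries. Their genotype differences are therefore given as values with standard errors and without a test.

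TRP channels are cation channels of the cell membrane, and many of them let calcium into the cell. TRPC channels open downstream of receptors that couple to Gq and phospholipase C, and in smooth muscle TRPC6 contributes to the calcium entry that contracts vessels and airways. TRPV4 responds to cell swelling and stretch, TRPM2 to oxidative stress, and TRPV2 and TRPM2 are well known from phagocytes.

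All 9 genes are protein coding and carry the ion transport domain in the table's Pfam column. Ankyrin repeats are listed for 5 of them (Trpc1, Trpc4, Trpc6, Trpv2 and Trpv4), and the alpha-kinase domain for Trpm7, a channel with a kinase tail. In the table's KEGG column, Trpc6 is the 1 member placed in the cGMP-PKG signaling pathway, and Trpv2, Trpm2 and Trpm7 are the 3 placed in NOD-like receptor signaling. Trpc6 (ENSMUSG00000031997) lies on the plus strand of GRCm38 at chr9:8544142-8680741, and Trpc1 (ENSMUSG00000032839) on the minus strand of the same chromosome at chr9:95705082-95750375, 87 Mb away. Trpm2 (ENSMUSG00000009292) lies at chr10:77907722-77970563 on the minus strand, and 2 annotated snoRNA genes, both at 0 in all 12 libraries, overlap its exons on that strand. No other annotated gene shares exon bases with a member.

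Start regions of 8 of the 9 members were matched in RefSeq (GRCm38.p6), each with 250 bases before and 50 after the start. Those of Trpc6 and Trpc1, which were lower in every IL-10 B-KO lung, and of Trpv2 and Trpm2, which followed the leukocyte markers described further on, are shown for a comparison of their make-up. They span chr9:8543892-8544191 (plus strand), chr9:95750299-95750598 (minus strand), chr11:62574236-62574535 (plus strand, the first of 3 Trpv2 starts) and chr10:77969823-77970122 (minus strand). Capitals mark matches on either strand. The motifs searched were the GC box GGGCGG, the promoter element CCAAT, the TATA box with the letters TATAAA, and GAGGAAG, a core bound by the myeloid transcription factor PU.1. The CArG box, the serum response factor element of muscle genes, was searched as well.
Trpc6: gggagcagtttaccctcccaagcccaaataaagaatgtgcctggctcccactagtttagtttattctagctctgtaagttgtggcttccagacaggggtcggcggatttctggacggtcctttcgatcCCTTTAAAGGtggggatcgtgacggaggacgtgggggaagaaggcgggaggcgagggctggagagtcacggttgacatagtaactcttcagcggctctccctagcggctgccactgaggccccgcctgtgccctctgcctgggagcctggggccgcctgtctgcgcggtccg
Trpc1: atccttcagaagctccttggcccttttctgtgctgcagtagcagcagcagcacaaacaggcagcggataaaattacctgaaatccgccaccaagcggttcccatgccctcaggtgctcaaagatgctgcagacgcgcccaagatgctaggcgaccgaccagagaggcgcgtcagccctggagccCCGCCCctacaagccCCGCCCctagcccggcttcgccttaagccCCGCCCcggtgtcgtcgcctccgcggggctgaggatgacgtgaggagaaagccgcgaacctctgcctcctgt
Trpv2: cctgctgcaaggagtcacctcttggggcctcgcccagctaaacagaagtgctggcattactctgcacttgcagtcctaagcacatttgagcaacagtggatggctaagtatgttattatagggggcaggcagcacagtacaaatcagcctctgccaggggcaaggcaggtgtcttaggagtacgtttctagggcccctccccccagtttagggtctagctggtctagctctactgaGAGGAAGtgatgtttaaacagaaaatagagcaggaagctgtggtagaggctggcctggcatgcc
Trpm2: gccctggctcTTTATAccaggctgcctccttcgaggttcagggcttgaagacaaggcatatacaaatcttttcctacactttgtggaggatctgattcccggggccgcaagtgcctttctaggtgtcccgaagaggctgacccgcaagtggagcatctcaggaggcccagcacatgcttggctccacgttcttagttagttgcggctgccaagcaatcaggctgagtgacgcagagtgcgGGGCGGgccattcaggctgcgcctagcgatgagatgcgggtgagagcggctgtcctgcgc
The Trpc6 window held 1 CArG box, a motif found in 1.63% of 32817 start regions of this length, and no GC box. The windows of the other matched members, Trpc1 among them, held no CArG box. The Trpc1 window held 3 GC boxes, which occur in 35.6% of start regions. The Trpv2 window held 1 GAGGAAG, which occurs in 13.6%. Of the Trpv2 windows not shown, the second (chr11:62574263-62574562) overlaps the first and held the same GAGGAAG. It also held 1 TATA box, which lies after its start. The third Trpv2 window held none of the motifs. The Trpm2 window held 1 GC box and 1 TATA box, the latter found in 13.6% of start regions and lying far upstream on the opposite strand. GAGGAAG was absent from the Trpm2 window. It was also absent from that of Trpv4, which followed leukocyte markers as well and is not shown. The Trpv4 window held 3 GC boxes and had a GC content of 73%. None of the 4 windows shown held CCAAT, which occurs in 37.4%, and matches of different motifs did not overlap. GC content was 60% in the Trpc6 window, 63% in Trpc1, 53% in Trpv2 and 58.3% in Trpm2, beside a median of 52.7% over all start regions. A match is a run of letters and was not tested for binding.

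Levels are TPM, a measure of transcript number that is scaled by transcript length and by the library total. The libraries summed to 991646 to 994430 TPM and detected 21380 to 24138 genes above 0. Differences were fitted with limma on log2(TPM + 1) over 15148 genes with at least 1 TPM in at least 6 libraries, and a gene was called when the Benjamini-Hochberg adjusted p was at most 0.05 and the log2 fold change at least 1 in size. All log2 fold changes are IL-10 B-KO minus IL-10 B-WT, and those of low genes are understated on this scale. Of all tested genes 36.8% had a negative log2 fold change, and the unadjusted limma p was 0.05 or less for 12.5% of them (6.83% higher and 5.71% lower). The median over all tested genes was 0.10, and -0.008 when each library was centred on its median, which gave -1.40 ± 0.27 for Trpc6, 1.31 ± 0.46 for Trpm2 and 0.03 ± 0.12 for Trpm7. Il10 was low in both genotypes, at 0 to 0.88 TPM in controls and 0 to 0.58 TPM in IL-10 B-KO, and was not tested. Cd79a, the gene whose locus drives the Cre, lay at 15.3 to 258.64 TPM in controls and 0 to 5.73 TPM in IL-10 B-KO (log2 fold change -4.16 ± 0.71, SE, n = 6 per genotype, limma adjusted p = 0.0222). B cell markers were negative for 8 of 8 genes, with summed levels of 70.6 to 898.5 TPM against 10.8 to 85.4 TPM, and Cd79a was the 1 called. Immunoglobulin genes took 0.248 to 15.4% of TPM in controls and 0.00199 to 0.0647% in IL-10 B-KO. In these libraries loss of interleukin-10 from B cells and loss of B cells cannot be told apart, for the channels as for any other gene. The lung labels were matched by high alveolar type 2 markers in every library, at 3332.1 to 21147.1 TPM summed. control replicate 1 and IL-10 B-KO replicate 2 stood apart. The former had the highest neutrophil and macrophage marker sums of its genotype, and the latter the lowest of its own. At the other end of the controls, replicate 5 had the lowest sums of both lists (290.1 and 800.2 TPM). Its alveolar type 2 sum of 3332.1 TPM was also the lowest.

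Trpc6 was lower in every IL-10 B-KO lung than in any control lung. In controls its lowest, median and highest level were 6.25, 8.24 and 12.08 TPM. In IL-10 B-KO they were 1.61, 3.04 and 4.41 TPM. The groups did not overlap, and the level closest to the other genotype was 6.25 TPM in control replicate 1 and 4.41 TPM in IL-10 B-KO replicate 4. The mean ± SD was 8.96 ± 2.53 TPM for the 6 controls. For the 6 IL-10 B-KO lungs it was 3.05 ± 0.929 TPM, so that the mean was 2.94-fold higher in controls. The log2 fold change was -1.29 ± 0.21 (SE) and stayed between -1.39 and -1.17 with any 1 library left out. Fewer cells of a type and less RNA per cell cannot be told apart in whole lung.

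Trpc1, which can join other TRPC subunits in 1 channel, was also lower in all 6 IL-10 B-KO lungs. Its lowest, median and highest level were 1.73, 2.33 and 2.95 TPM in controls and 0.7, 1.07 and 1.57 TPM in IL-10 B-KO. The groups did not overlap, although the gap between them was 1.57 to 1.73 TPM only. Its log2 fold change was -0.62 ± 0.16 (SE, n = 6 per genotype), and -0.96 with a pseudocount of 0.1 in place of 1. All 6 control libraries but 3 IL-10 B-KO libraries reached 1 TPM, so that the filter was passed through the higher group.

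Trpc4, a channel of endothelium and smooth muscle, was listed at 0 in 10 of 12 libraries. It reached 0.02 TPM in control replicate 1 and 0.04 TPM in IL-10 B-KO replicate 3, and did not pass the filter. Trpc7, a close relative of Trpc6, was at 0 in all 12 libraries.

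**Figure D1:**
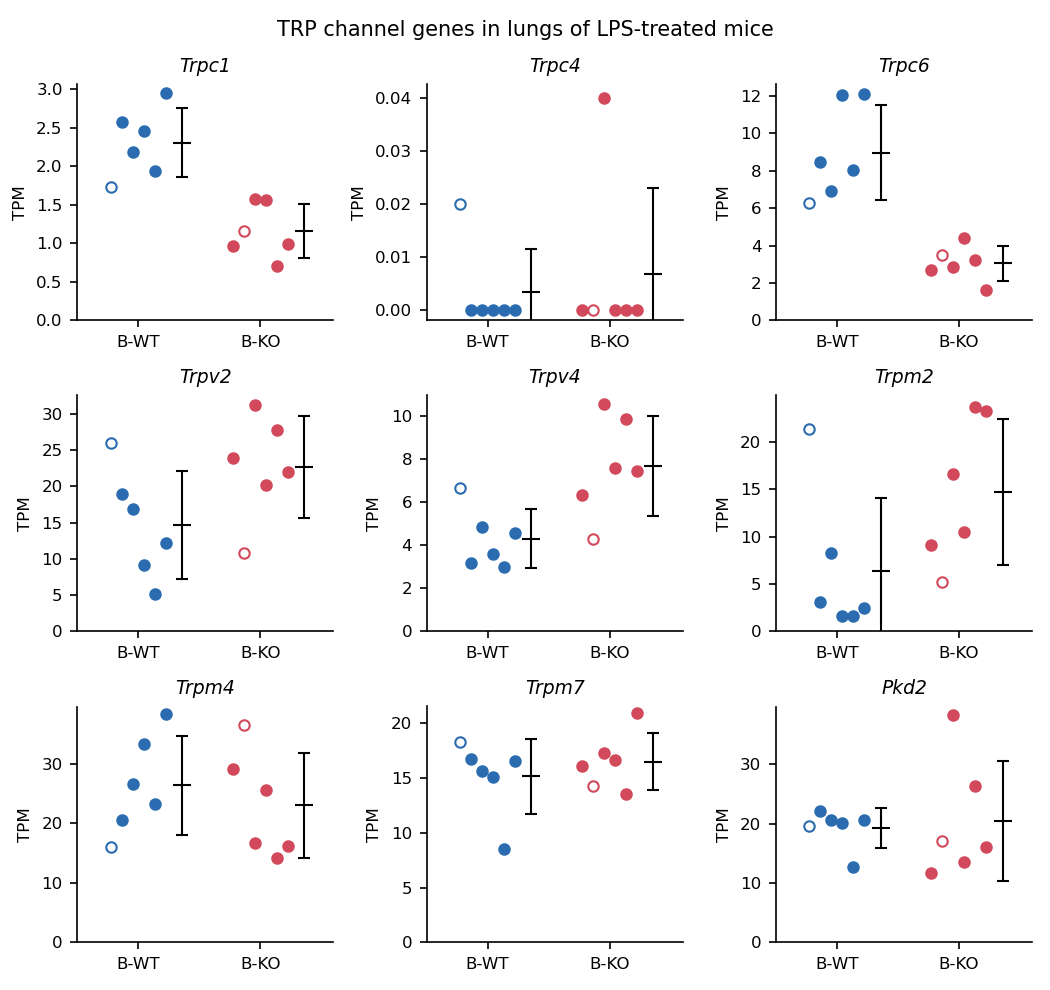
TPM of the 9 channel genes (linear axes, scaled per panel) in each of 6 IL-10 B-WT (blue) and 6 IL-10 B-KO lungs (red), with the mean ± SD in black. Open points are control replicate 1 and IL-10 B-KO replicate 2. Trpc6 and Trpc1 do not overlap between genotypes, and Trpc4 is at or near 0 throughout.

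Trpm2, a channel opened by ADP-ribose under oxidative stress, had the largest positive difference of the members. Its lowest, median and highest level were 1.65, 2.81 and 21.35 TPM in controls and 5.24, 13.6 and 23.68 TPM in IL-10 B-KO. The groups overlapped through control replicate 1 at 21.35 TPM, which lay far above the 8.25 TPM of the next control lung, and IL-10 B-KO replicate 2 at 5.24 TPM. The log2 fold change was 1.42 ± 0.52 (SE), with a range of 1.22 to 1.84 when 1 library was left out, and 2.07 ± 0.37 without both of these lungs.

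Trpv2, a channel of macrophages and other cells that responds to heat and membrane stretch, lay at 5.17, 14.5 and 25.97 TPM (lowest, median, highest) in controls and 10.76, 22.9 and 31.2 TPM in IL-10 B-KO. The same 2 lungs made the groups overlap. Its log2 fold change was 0.68 ± 0.34 (SE), from 0.44 (without control replicate 5) to 0.86 with 1 library left out, and 1.05 ± 0.29 without both. Trpv4, the mechano- and osmosensitive channel, lay at 3, 4.08 and 6.67 TPM in controls and 4.31, 7.52 and 10.58 TPM in IL-10 B-KO. Here too control replicate 1 was the highest of its genotype and IL-10 B-KO replicate 2 the lowest. Its log2 fold change was 0.70 ± 0.22 (SE), from 0.61 to 0.84 with 1 library left out, and 0.95 ± 0.20 without both.

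Trpm4, a calcium-activated channel for monovalent cations, had the highest mean of the members in both genotypes, although not in IL-10 B-KO without replicate 2 (20.3 TPM, below the 25 TPM of Trpv2 and the 21.2 TPM of Pkd2). It lay at 16.01, 24.9 and 38.35 TPM in controls and 14.23, 21.1 and 36.43 TPM in IL-10 B-KO, and its log2 fold change was -0.21 ± 0.26 (SE), and -0.48 ± 0.24 without control replicate 1 and IL-10 B-KO replicate 2. Control replicate 1 was the lowest of its genotype and IL-10 B-KO replicate 2 the highest, the opposite of Trpm2, Trpv2 and Trpv4. Trpm7, the channel-kinase that carries magnesium and is needed by most cells, lay at 8.54, 16.1 and 18.27 TPM in controls and 13.58, 16.4 and 20.92 TPM in IL-10 B-KO, with a log2 fold change of 0.14 ± 0.18 (SE). Without control replicate 5 it was -0.01. Pkd2, polycystin-2 of primary cilia and the endoplasmic reticulum, lay at 12.75, 20.4 and 22.2 TPM in controls and 11.7, 16.6 and 38.38 TPM in IL-10 B-KO. Its log2 fold change was -0.01 ± 0.26 (SE) and ranged from -0.21 to 0.12 with 1 library left out, so that the sign depended on the lungs used. For Trpm4, Trpm7 and Pkd2 the genotypes overlapped widely.

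Of the 9 members, 8 passed the filter on low levels, 4 with a positive and 4 with a negative log2 fold change, and their median was 0.06. As a description and not as a test of the members, the rule for calling a gene was met by 1 of them, Trpc6, beside 0.495% of all tested genes (75 of 15148, of which 71 were lower and 4 higher). Trpc6 and Trpc1 were the 2 members whose genotypes did not overlap, beside 1.02% of all tested genes. Without control replicate 1 and IL-10 B-KO replicate 2, the genotypes did not overlap for 5 members (Trpc6, Trpc1, Trpm2, Trpv2 and Trpv4), beside 13.3% of all tested genes. As the members were selected on this contrast, nothing is read from these shares. Those 2 lungs were known to stand apart from earlier results on the same libraries. For Trpm2, Trpv2 and Trpv4 they were the highest control and the lowest IL-10 B-KO lung. Leaving them out therefore had to widen the difference of these genes. Control replicate 5 was the lowest control lung for Trpm2, Trpv2 and Trpv4. Without it their log2 fold changes were smaller, at 1.22, 0.44 and 0.63.

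Of the 18 other genes of the TRP superfamily that were looked up, 6 passed the filter and limma called 0, with 0 at an unadjusted p under 0.05. The endolysosomal channel Mcoln1 was the most abundant of them, at 52.1 ± 13 TPM (SD, n = 6) in controls and 59.3 ± 13.5 TPM in IL-10 B-KO, with a log2 fold change of 0.19 ± 0.20 (SE). Its relatives Mcoln2 and Mcoln3 had log2 fold changes of 0.11 and -0.29, the magnesium channel Trpm6 0.31, the calcium channel Trpv6 0.26 and Trpm3 -0.32. The 12 that were not tested included the sensory channels Trpv1, Trpm8 and Trpa1, which reached at most 0.09, 0.04 and 0.03 TPM, and Trpv3, Trpv5, Trpm1, Trpm5, Trpc2, Trpc5, Pkd2l1 and Pkd2l2.

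**Figure D2:**
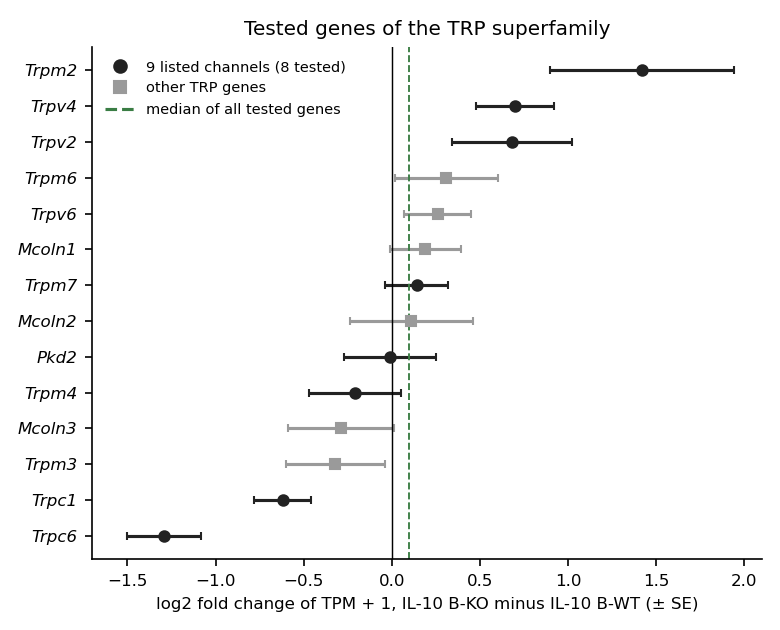
Log2 fold change of TPM + 1, IL-10 B-KO minus IL-10 B-WT, with its SE from limma (n = 6 per genotype) for 14 TRP genes that passed the filter. Black circles are the listed channels and grey squares other TRP genes. The dashed line is the median of all tested genes (0.10). Trpc6 lies lowest at -1.29 and Trpm2 highest at 1.42.

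The members were ordered by mean level in each genotype. In controls the order was Trpm4 (26.3 TPM), Pkd2 (19.3), Trpm7 (15.1), Trpv2 (14.7), Trpc6 (8.96), Trpm2 (6.42), Trpv4 (4.31), Trpc1 (2.31) and Trpc4 (0.00333). In IL-10 B-KO it was Trpm4 (23 TPM), Trpv2 (22.6), Pkd2 (20.5), Trpm7 (16.5), Trpm2 (14.8), Trpv4 (7.69), Trpc6 (3.05), Trpc1 (1.16) and Trpc4 (0.00667). In controls 4 members stood above Trpc6, and in IL-10 B-KO 6. The place of Trpm2 in controls rested on replicate 1. Without it the mean was 3.44 TPM for Trpm2 and 3.84 TPM for Trpv4, and Trpm2 was above Trpv4 in 2 of 6 control lungs (permutation p = 0.938). Each of the 8 neighbouring pairs per genotype was compared within lungs by an exact two-sided sign-flip permutation test. In controls, Pkd2 was above Trpm7, Trpv4 above Trpc1 and Trpc1 above Trpc4 in 6 of 6 lungs, each with the smallest p that 6 lungs allow (permutation p = 0.0312, adjusted p = 0.0833). In IL-10 B-KO the same held for Trpm2 above Trpv4, Trpv4 above Trpc6, Trpc6 above Trpc1 and Trpc1 above Trpc4 (permutation p = 0.0312, adjusted p = 0.0625). No pair passed 0.05 after adjustment. With 6 lungs a pair could pass only if most of the 8 pairs of its genotype had the smallest p. A failure to pass therefore does not show that neighbours were alike. Trpc6 did not differ from its neighbours Trpv2 and Trpm2 in the controls beyond their spread (permutation p = 0.219 and adjusted p = 0.292 for each).

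Since the difference between genotypes chose the members, the lungs were next compared within each genotype. For each gene the log2 level was taken as its deviation from the mean of its own genotype, and marker lists as the mean deviation of their genes. The 8 tested members were set against 6 marker lists over 12 lungs, and p-values from 100000 permutations within genotype were adjusted over the 48 correlations. Points share their libraries and the common TPM total. Over these lungs the pericyte and smooth muscle lists moved closely together, and so did the neutrophil and macrophage lists. Correlations with both lists of such a pair are therefore not separate results.

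Trpc6 varied from lung to lung with the genes of mural cells, the pericytes and smooth muscle cells that wrap vessels and airways. With smooth muscle markers (Acta2, Myh11, Tagln and 6 others tested) Pearson's r was 0.89 (permutation p = 7.40e-04, adjusted p = 0.00592) and Spearman's rho 0.83 (permutation p = 0.00393, adjusted p = 0.0269). Pearson's r was 0.84 within controls (exact permutation p = 0.0847) and 0.94 within IL-10 B-KO (exact permutation p = 0.00833), both unadjusted. With pericyte markers (Pdgfrb, Cspg4, Notch3 and 8 others) r was 0.84 (permutation p = 0.00232, adjusted p = 0.0159) and rho 0.86 (permutation p = 0.00218, adjusted p = 0.0262). Within controls r was 0.86 (unadjusted exact permutation p = 0.0625) and within IL-10 B-KO 0.82 (0.0389). Leaving out the 2 lungs farthest from the median of the marker list gave r = 0.76 for smooth muscle and 0.74 for pericytes. IL-10 B-KO replicate 6, the lung lowest in Trpc6 and in both lists, mattered most. Without it r was 0.83 for smooth muscle and 0.78 for pericytes and neither passed (adjusted permutation p = 0.0731 and 0.0764), and the pericyte correlation also missed the threshold without IL-10 B-KO replicate 4 (r = 0.80, adjusted permutation p = 0.0516). With endothelial (r = 0.40), fibroblast (0.17), neutrophil (-0.45) and macrophage markers (-0.47) the correlations of Trpc6 did not pass, with adjusted permutation p of 0.345, 0.656, 0.306 and 0.295.

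These marker lists also moved with genotype. All 11 pericyte markers had a negative log2 fold change, with a median of -0.82 beside 0.10 over all tested genes. Of these Notch3 (-1.78 ± 0.32, SE, limma adjusted p = 0.0236) and Pdgfrb (-1.44 ± 0.29, adjusted p = 0.0456) were called. The pericyte markers were uneven, from -1.78 to -0.07. An unadjusted limma p under 0.05 was reached by 7 of the 11, beside 5.71% of all tested genes that were lower at that level. The summed pericyte level was 409.8 to 878.5 TPM in controls and 214.0 to 444.6 TPM in IL-10 B-KO. All 9 tested smooth muscle markers were negative as well, with a median of -0.89. None of them was called by limma and 6 had an unadjusted p under 0.05, beside 5.71% of all tested genes, and their sum was 298.9 to 1138.1 TPM against 131.0 to 598.0 TPM. Cardiomyocyte markers, present where large vessels or heart tissue come with the lung, were negative for 6 of 6 genes with 0 called by limma and 1 at an unadjusted p under 0.05, at 64.8 to 1570.8 TPM against 23.4 to 428.5 TPM. Cardiomyocyte markers were not set against Trpc6 within genotypes. No marker of these lists was at 0 in all libraries. The part of these lists in the lower Trpc6 level was not tested.

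Trpm2, Trpv4 and Trpv2 varied with leukocyte markers. Epithelial lists, alveolar type 2 markers among them, were not set against the members. Trpm2 had r = 0.91 with neutrophil markers (S100a8, S100a9, Csf3r and 7 others) and 0.92 with macrophage markers (Cd68, Adgre1, Mrc1 and 8 others), each with an adjusted permutation p of 0.00252. Their rho was 0.89 for both lists (adjusted permutation p = 0.0192). Within genotypes the neutrophil r of Trpm2 was 0.93 in controls and 0.97 in IL-10 B-KO, and the macrophage r 0.96 and 0.83. Trpv4 had r = 0.89 with neutrophil markers (adjusted permutation p = 0.00422) and 0.90 with macrophage markers (0.00252), with a rho of 0.83 for both (0.0269). Its values within the 2 genotypes were 0.89 and 0.89 for neutrophils and 0.92 and 0.94 for macrophages. Trpv2 was tied most closely to macrophage markers, with r = 0.94 (adjusted permutation p = 0.00252), rho = 0.94 (0.011) and r = 0.91 within controls. Its correlation with neutrophil markers was 0.73 (adjusted permutation p = 0.0358) but its rho of 0.60 did not pass (0.225).

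The 2 lungs that stood apart weighed on these values. They are also the 2 farthest from the median of the macrophage list. Without them r with macrophage markers was 0.79 for Trpm2, 0.74 for Trpv4 and 0.88 for Trpv2, and with neutrophil markers 0.80, 0.74 and 0.41. None of these passed after adjustment over the 10 remaining lungs (adjusted permutation p = 0.072 to 0.432). With quantile normalization the macrophage correlation of Trpv4 was 0.60 (adjusted permutation p = 0.124). The Trpv2 and neutrophil correlation failed to pass without any 1 of 9 lungs, control replicate 1 among them (r = 0.62, adjusted permutation p = 0.116). Leaving out the 2 lungs farthest on the neutrophil list gave r = 0.85 for Trpm2, 0.82 for Trpv4 and 0.62 for Trpv2.

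Across genotypes, all 10 neutrophil markers and all 11 macrophage markers had positive log2 fold changes, with medians of 1.72 and 1.48. Limma called 0 of either list, and 10 and 8 had an unadjusted p under 0.05, beside 6.83% of all tested genes that were higher at that level. Neutrophil markers summed to 290.1 to 2589.6 TPM in controls and 1060.0 to 7775.6 TPM in IL-10 B-KO, and macrophage markers to 800.2 to 12952.8 TPM and 3734.0 to 11477.1 TPM. In control replicate 1 the neutrophil sum was 2589.6 TPM and the macrophage sum 12952.8 TPM, and in IL-10 B-KO replicate 2 they were 1060.0 and 3734.0 TPM, the order in which Trpm2, Trpv2 and Trpv4 stood in these lungs. No marker of either list was at 0 in all libraries. The part of these lists in the higher Trpm2, Trpv2 and Trpv4 levels was not tested.

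**Figure D3:**
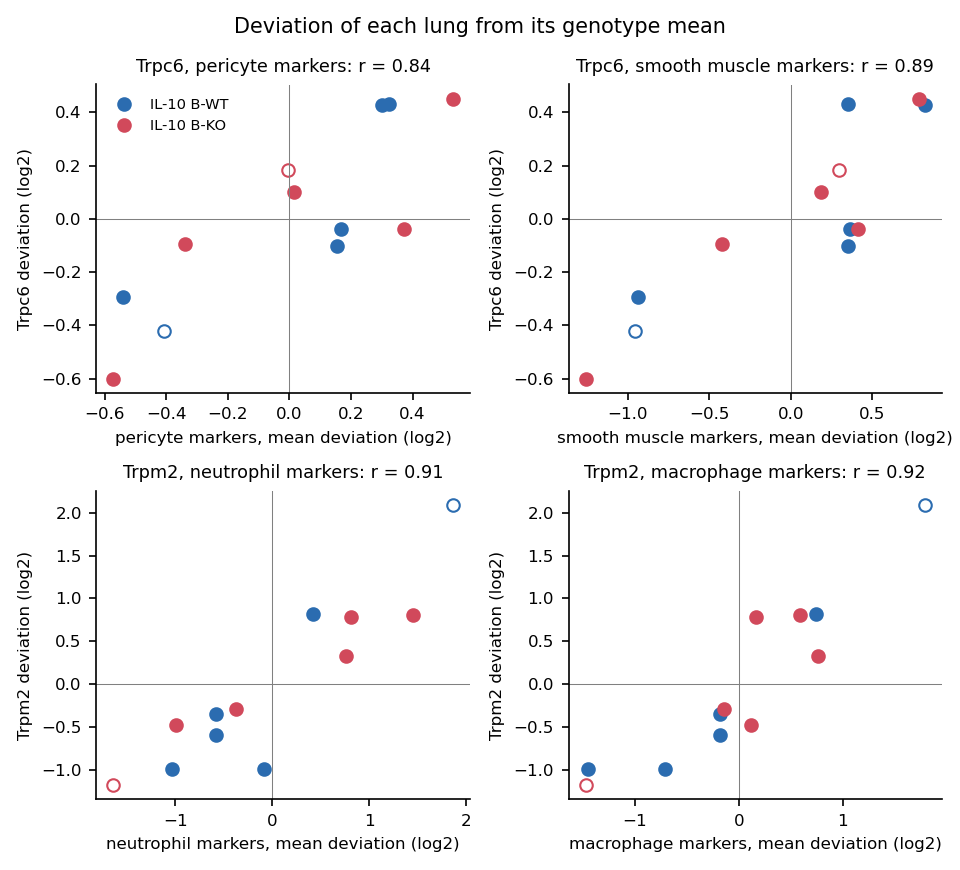
Each point is 1 lung. The y axes give Trpc6 (top) or Trpm2 (bottom) and the x axes the mean of a marker list, all as log2(TPM + 1) minus the genotype mean, for IL-10 B-WT (blue) and IL-10 B-KO (red), with control replicate 1 and IL-10 B-KO replicate 2 as open points. Trpc6 rises with pericyte (r = 0.84) and smooth muscle markers (r = 0.89), and Trpm2 with neutrophil (r = 0.91) and macrophage markers (r = 0.92).

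Trpm4 had correlations that depended on the lungs used. Its r was -0.80 with neutrophil markers (adjusted permutation p = 0.0358) and 0.74 with endothelial markers (0.0358), but rho was -0.57 and 0.54 and did not pass (0.264 and 0.274). Without control replicate 1 and IL-10 B-KO replicate 2 they were -0.60 and 0.46, and neither passed (adjusted permutation p = 0.432 and 0.473). Over all 16 alternatives the neutrophil correlation passed in 8 and the endothelial in 6. Trpc1 had r = 0.67 with pericyte and 0.55 with smooth muscle markers, the signs of Trpc6, and did not pass (adjusted permutation p = 0.104 and 0.21). Trpm7 and Pkd2 passed with no list. The largest of their correlations was 0.61, that of Trpm7 with macrophage markers (adjusted permutation p = 0.189).

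**Figure D4:**
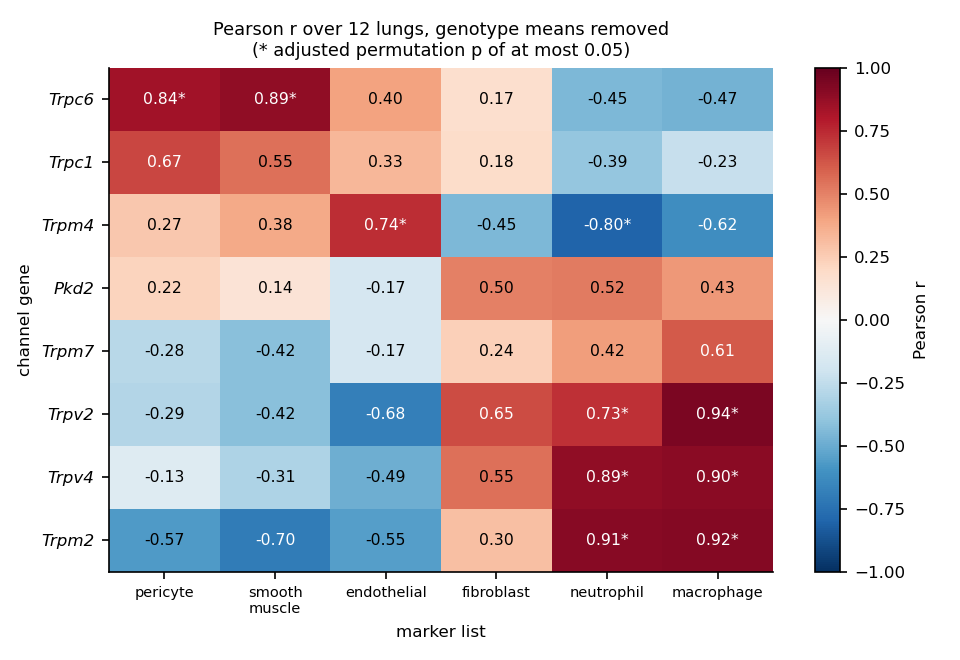
Pearson's r of the 8 tested channel genes (y axis) with 6 marker lists (x axis) over 12 lungs, after the genotype mean was removed. Red is positive and blue negative, and an asterisk marks an adjusted permutation p of at most 0.05. Trpc6 is marked for pericyte and smooth muscle lists, Trpv2, Trpv4 and Trpm2 for neutrophil and macrophage lists, and Trpm4 for neutrophil (negative) and endothelial lists.

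Of 11168 genes with a mean of at least 5 TPM, the 8 whose deviations over the 12 lungs were most like those of Trpc6 were Tagln (r = 0.95), Gucy1b1 (0.92), Notch3, Ppp1r14a, Trarg1, Lhfp, Mustn1 and Rerg (0.89 each). Tagln encodes transgelin, an actin-binding protein of smooth muscle, Gucy1b1 a subunit of the nitric oxide receptor, Notch3 a receptor of mural cells and Ppp1r14a an inhibitor of myosin phosphatase. Within each genotype, controls first, r was 0.94 and 0.95 for Tagln and 0.96 and 0.89 for Gucy1b1. Among the members, Trpm4 stood closest to Trpc6 (r = 0.62, rank 226) and Trpm2 farthest (r = -0.65, rank 11138). These values are a description, without a test.

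The nitric oxide and cGMP genes that share the KEGG cGMP-PKG pathway with Trpc6 had negative log2 fold changes in 4 of 4 cases, and 3 of them were called. The list follows a pathway that the study picked out from these libraries, so that it is not independent evidence of its direction. Gucy1a1 and Gucy1b1, the subunits of soluble guanylate cyclase that makes cGMP, lay at 35.66 to 91.15 and 33 to 96.54 TPM in controls and 6.61 to 29.18 and 9.49 to 30.8 TPM in IL-10 B-KO. Their log2 fold changes were -2.07 ± 0.36 and -1.65 ± 0.32 (SE, limma adjusted p = 0.0222 and 0.0378). Pde5a, which breaks cGMP down, had a log2 fold change of -1.86 ± 0.31 (limma adjusted p = 0.0201). Its groups did not overlap either, at 27.16 to 63.15 TPM and 6.08 to 18.69 TPM. Prkg1, the kinase that cGMP activates and that can phosphorylate TRPC6, lay at 2.13 to 9.05 TPM in controls (mean 4.77) and 0.92 to 2.6 TPM in IL-10 B-KO (mean 1.7) and was not called (limma adjusted p = 0.176). The pericyte and smooth muscle sums given above moved the same way, and their part in these differences was not tested.

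Genes upstream of TRPC channels were called in no case. Of 19 receptors, G proteins and phospholipases of the Gq route, 15 were tested, 11 with a negative log2 fold change and a median of -0.16, and 5 had an unadjusted p under 0.05 by limma, all lower, beside 5.71% of all tested genes. The thrombin receptor F2r had an adjusted p of 0.0201 by limma, but its log2 fold change of -0.78 ± 0.13 was below the minimum, with 67.14 to 87.67 TPM in controls and 37.59 to 54.13 TPM in IL-10 B-KO. The angiotensin receptor Agtr1a had -1.77 ± 0.40 (limma adjusted p = 0.081), and the endothelin receptors Ednra and Ednrb -0.91 ± 0.26 and -1.55 ± 0.63 (0.19 and 0.353). The G proteins Gnaq and Gna11 had -0.01 ± 0.16 and -0.16 ± 0.12 (limma adjusted p = 0.99 and 0.577).

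Calcium entry by other routes gave 0 calls as well. Of 15 genes for voltage-gated entry and calcium handling of muscle, 12 were tested, 10 of them negative with a median of -0.54 and 6 at an unadjusted limma p under 0.05, all lower, beside 36.8% and 5.71% of all tested genes. Mylk, the myosin light chain kinase, had -0.91 ± 0.18 (limma adjusted p = 0.0438), again under the minimum fold change, and did not overlap between genotypes, at 67.8 to 97.2 and 28.35 to 56.22 TPM. Cacna1c, the pore of the L-type calcium channel, had -0.66 ± 0.15 (limma adjusted p = 0.0719), Cacnb2 -0.63 ± 0.19 and Cacna1h -0.98 ± 0.38. Pericyte and smooth muscle markers moved the same way, with the medians of -0.82 and -0.89 given above, and their part in these differences was not tested. Among 9 store-operated entry genes the median was 0.07, and 2 had an unadjusted limma p under 0.05, the store sensor Stim2 at -0.35 ± 0.13 and the pore Orai1 at 0.51 ± 0.20. Of 11 calcineurin and NFAT genes, which read calcium entry in the nucleus, 0 had an unadjusted p under 0.05 by limma and the median was 0.04, with Rcan2 at -0.48 ± 0.24, Nfatc4 at -0.23 ± 0.16, Rcan1 at 0.33 ± 0.26 and Ppp3r1 at 0.18 ± 0.16. Of 8 channel-binding proteins, 5 were positive with a median of 0.26 and 1 had an unadjusted limma p under 0.05, the scaffold Slc9a3r1 at 0.67 ± 0.31. Pkd1, Cav1 and Homer2 had -0.27 ± 0.17, -0.33 ± 0.21 and 0.29 ± 0.19.

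The remaining cell type lists were measured for comparison with the members. Endothelial markers were negative for 11 of 12 genes (median -0.28), fibroblast markers for 7 of 11 (-0.17), alveolar type 1 markers for 5 of 7 (-0.14) and ciliated cell markers for 5 of 6 (-0.42). Alveolar type 2 markers were positive for 8 of 8 (0.85). Limma called 0 genes of these 5 lists, with 2, 3, 0, 0 and 5 at an unadjusted p under 0.05 in the order given. The 2 endothelial and 3 fibroblast markers were lower, beside 5.71% of all tested genes. The 5 alveolar type 2 markers were higher, beside 6.83% of all tested genes.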

How the data were processed

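Total RNA of 12 lungs was sequenced on an Illumina platform. The authors deposited 1 table of TPM, 1 column per library and unpooled, calculated with RSEM per the paper and rounded to 2 decimals. The submitters' processing notes name fastp, HISAT, RSEM and GRCm38.p5. The annotation release is not given in the sources used here. TPM keep no read depth, so the number of reads behind a value is unknown, and precision rests on the spread between 6 mice per genotype. Groups and replicate numbers came from the labels, and 0 columns of sample values were left unused. No 2 libraries were identical (Spearman's rho 0.881 to 0.93 across genes).

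Differences were fitted with limma 3.58.1 in R 4.3.3 (lmFit, eBayes with trend) with 1 term, genotype, on TPM after adding 1 and taking log2, and adjusted by Benjamini-Hochberg. It was first tested on simulated data. Correlations and permutation tests used Python 3.11.15, NumPy 2.4.6, pandas 2.3.3 and SciPy 1.17.1, with 100000 permutations (20000 for alternatives), and figures matplotlib 3.10.9. Trpc4 did not pass the filter, so that 48 correlations were tested. Tests are two-sided. Gene coordinates came from GENCODE release M21 on GRCm38, start regions from RefSeq.

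The members and all gene lists were chosen with earlier results of these data known. Genes named were the members, the other TRP genes, Il10, Cd79a, of each pathway list the called genes and up to 4 others with the smallest p, up to 3 markers per list, and the 8 genes most like Trpc6. Gnaq, Gna11 and Mcoln1's levels were added after their values were seen. Alternatives were another pseudocount, other filters, 3 scalings, array weights, a replicate block and leaving out libraries. Some genes of the TRP and binding-protein lists are not reported here, and the counts leave them out.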

Additional observations from a re-analysis of the deposited data

Results flagged for a closer look

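In each genotype and for each of the 9 channels, the lung at either end was compared with its nearest neighbour by Dixon's ratio, with a critical value of 0.625 for 6 lungs. Of 18 groups 5 exceeded it. The 2 of Trpc4 had 5 lungs at 0, which fixes the ratio. Of the 16 groups without Trpc4, 3 exceeded it. Chance gives about 1 in 20 for separate groups of normal values, but these groups share their libraries. The count was therefore not set against that rate. Trpm2 reached 21.35 TPM in control replicate 1, far above the other lungs of that genotype. In control replicate 5, Trpm7 was lowest at 8.54 TPM and Pkd2 at 12.75 TPM, and the same library had the fewest genes above 0 (21380). Trpc4 reached 0.02 TPM in 1 control lung and 0.04 TPM in 1 IL-10 B-KO lung, with 0 in all the others. Trpc6 was not among the 5.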

How the results depend on the processing

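All log2 fold changes of Trpc6 were negative and ranged from -1.54 (pseudocount of 0.1) to -1.17 (without IL-10 B-KO replicate 6) over 21 alternatives. The number of genes called, 75, moved more. It was 6 without a filter, 27 after rescaling without immunoglobulin genes, 39 with quantile normalization, 36 with median centring, 318 with array quality weights and 19 to 604 with 1 library left out. This was 604 without control replicate 1, 38, 23 and 35 without control replicates 4, 5 and 6, and 19, 116, 33, 19 and 46 without IL-10 B-KO replicates 1, 2, 3, 5 and 6. Without control replicate 1 and IL-10 B-KO replicate 2 it was 1492 (1066 higher, 426 lower). The cause was not tested. With a replicate block 45 genes were called. Replicate numbers were not used as pairs in the main fit. Same-numbered lungs had correlations of -0.292 to 0.046, and 0 of 6 were over 0.1. Other pairs of lungs ranged from -0.735 to 0.612, so that 6 values cannot exclude a pairing. With 1 library left out, r of Trpc6 ranged from 0.78 to 0.90 for pericyte and from 0.83 to 0.92 for smooth muscle markers. The order of levels had 0 passing pairs under all 3 alternatives run, an outcome that 6 lungs made likely in advance. The test of the order was not run with lungs left out, since 5 lungs allow no p under 0.0625. Without counts, the depth behind low levels such as those of Trpc1 and Trpc4 is unknown. Means without control replicate 1 and without IL-10 B-KO replicate 2 were added for the order after the data were seen.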
